A study of Mus musculus with 6 samples.

Results

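The cells described here are the fibroblast-like cells of the mouse hippocampus, taken as all cells to which the authors' deposited table gives the class Fibroblast-Like. They were 109 of 12823 cells (0.85%) in 17 classes. One of them, in a PBS mouse, was called a doublet and left out, so that 108 cells with 126137 unique molecular identifiers (UMIs, each of which stands for 1 captured transcript) were used. The cells came from 6 mice of the line B6.Cg-Tg(APPswe,PSEN1dE9)85Dbo/Mmjax, known as APP/PS1, which carries transgenes for a mutant human-derived amyloid precursor protein and a mutant presenilin under the mouse prion promoter, active mainly in neurons. All 6 mice were 10 weeks old and carried these transgenes. Of these, 3 received phosphate buffered saline (PBS) and 3 an antisense oligonucleotide (ASO). The title speaks of lowering IDOL, the ubiquitin ligase that the gene Mylip encodes, and Mylip was therefore read as the target. The labels give no mouse without the transgenes and no control oligonucleotide, so an effect of the target and an effect of oligonucleotides in general cannot be told apart. Each hippocampus was dissociated into single cells and profiled by Drop-Seq, which pairs cells with barcoded beads in droplets and reads the 3' end of each transcript.

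Brain fibroblasts lie in the meninges, in the sheath around larger vessels and in the stroma of the choroid plexus. They lay down collagens and small proteoglycans, secrete growth factors such as IGF2, and carry transporters for amino acids and organic anions. Fibroblasts of the pia, arachnoid and dura differ in the genes they use. The labels do not say which of these layers came with the dissected hippocampus.

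The PBS mice gave 9, 19 and 11 fibroblast-like cells with 11578, 21538 and 13482 UMIs. The ASO mice gave 27, 22 and 20 cells with 31158, 25666 and 22715 UMIs. A fibroblast-like cell held a median of 1094 UMIs (655 to 1999) and a median of 758.5 detected genes. In all, 12443 genes had at least 1 UMI in the class, 2872 had at least 10 and 633 had at least 30, and this small depth limits every comparison below. Mitochondrially encoded genes took 5.40%, 5.01% and 8.22% of the class's UMIs in the PBS mice and 5.65%, 3.66% and 5.27% in the ASO mice. Over all classes, 12616 cells remained after 207 doublets were left out. None of the fibroblast-like cells shared its barcode with a cell of another library (0 of 109), while 8 barcodes of the whole table did. The ratio of 2 mitochondrial transcripts, mt-Rnr2 to mt-Cytb, ran from 4.49 to 16.8 over the mice, and by it they were put into 3 sets of 2, each with 1 PBS and 1 ASO mouse. No label names a batch, the sets were read from the data, and the step inside the lowest set (4.49 to 7.16) was at least as wide in ratio as the step to the next (7.16 to 10.9).

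The class label was set against its 6 markers. Levels below are CPM, the UMIs of a gene scaled to a common total of all UMIs of the class, and since each transcript is counted once at its 3' end no scaling by gene length was applied. Dcn, which encodes the collagen-binding proteoglycan decorin, had 586 UMIs (4646 CPM) and was found in 91 of the 108 cells (84.3%). Igf2, a secreted insulin-like growth factor, had 296 UMIs (2347 CPM) in 63 cells (58.3%). Col1a2, a chain of type I collagen, had 146 UMIs (1157 CPM) in 68 cells (63.0%). Slc6a13, the GABA and taurine transporter GAT2, had 67 UMIs (531 CPM) in 37 cells (34.3%). Col1a1, the other type I collagen chain, and Col3a1, the chain of type III collagen, were sparse, with 26 UMIs in 22 cells and 21 UMIs in 14 cells. In 3000 oligodendrocytes, which should lack these genes and had a median depth of 1037 UMIs, the shares of cells with a UMI were 0.467% for Dcn, 1.33% for Igf2, 0.200% for Col1a2, 0.267% for Slc6a13, 0.1% for Col1a1 and 0.1% for Col3a1. The 6 marker genes were each at their highest pooled level in the fibroblast-like class among all 17 classes. No cell held all 6 markers. There were 9 cells with 5 markers, 21 with 4, 32 with 3, 26 with 2, 18 with 1 and 2 with none. These classes came from the same cells, so values of one class beside another are given as descriptions with no test.

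The markers lie on separate chromosomes except for Col1a2 and Slc6a13. In GRCm38 with GENCODE gene models, Dcn is at chr10:97479609-97518143 (plus strand), Igf2 at chr7:142650766-142666816 (minus), Col1a2 at chr6:4504814-4541544 (plus), Slc6a13 at chr6:121300227-121337733 (plus), Col1a1 at chr11:94936224-94953042 (plus) and Col3a1 at chr1:45311538-45349706 (plus). The sources used here do not state whether counting used strand, so reads of Igf2 and of an antisense transcript at its locus cannot be told apart.

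Marker levels varied between mice of a group. Dcn had 1209, 7104 and 3857 CPM in the PBS mice and 4140, 4831 and 5019 CPM in the ASO mice. The lowest and the highest Dcn level both belonged to PBS mice. Igf2 had 4664, 2089 and 3560 CPM in the PBS mice and 1765, 3039 and 704 CPM in the ASO mice, so that the groups overlapped and ASO 3 was lowest. Col1a2 had 950, 1904 and 1483 CPM in the PBS mice and 1155, 935 and 616 CPM in the ASO mice. Slc6a13 had 777, 371 and 668 CPM in the PBS mice and 674, 584 and 220 CPM in the ASO mice. ASO 3 was the lowest mouse for Igf2, Col1a2 and Slc6a13, and the groups overlapped for each of these genes. Col1a1 rested on 6, 5 and 0 UMIs in the PBS mice and 5, 5 and 5 in the ASO mice. A count of 0 there allows up to 3 UMIs. Col3a1 rested on 7, 2 and 2 against 3, 5 and 2 UMIs.

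**Figure D1:**
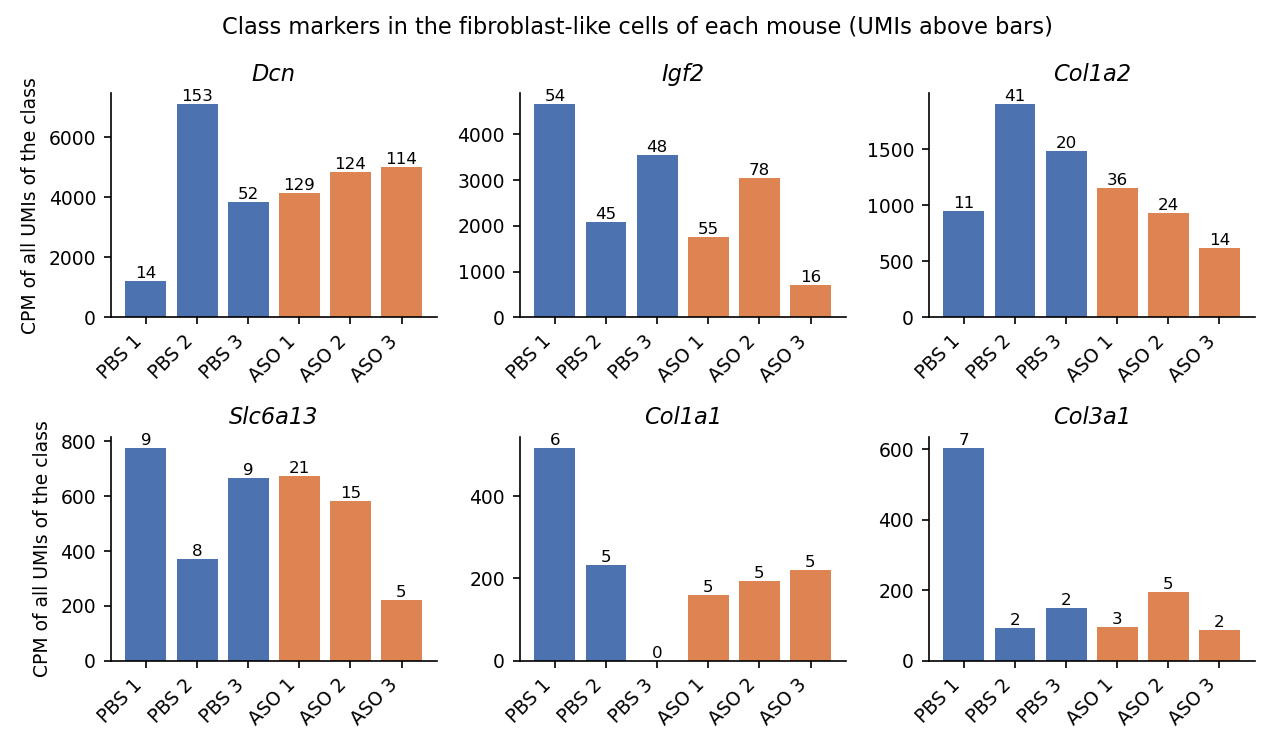
Levels of the 6 class markers in the summed fibroblast-like cells of each mouse, 1 bar a mouse, in CPM of all UMIs of the class, with the UMI count above each bar and PBS mice in blue and ASO mice in orange. Dcn was lowest in PBS 1 (1209 CPM) and highest in PBS 2 (7104 CPM), and Col1a1 was not counted in PBS 3.

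Markers of other cell types were checked in the same cells. Of 6 ependymal genes, Ccdc153, Tmem212, Foxj1, Dynlrb2 and 1110017D15Rik had no UMI and Rarres2 had 9. Of 6 choroid plexus genes, Clic6, Aqp1 and Kcnj13 had no UMI. The other 3, Ttr, Kl and Folr1, were detected at 3322 CPM in sum, most of it from Ttr. Of 8 microglia and macrophage genes, C1qa, C1qb, Cx3cr1, P2ry12, Pf4 and Cd163 had no UMI, while Ctss and Mrc1 had 2 in sum. Endothelial markers were detected for 6 of 6 genes, at 418 to 3041 CPM in sum in the PBS mice and 514 to 837 CPM in the ASO mice, against 16126 CPM in the endothelial class. Mural markers were detected for 7 of 7 genes, at 650 to 2967 CPM in the PBS mice and 528 to 1520 CPM in the ASO mice, against 22378 CPM in mural cells. The counts were uneven among cells: 18 fibroblast-like cells held 2 or more endothelial marker UMIs and 30 held 2 or more mural marker UMIs. Astrocyte markers summed to 557 to 1409 CPM in the PBS mice and 440 to 1364 CPM in the ASO mice, against 29200 CPM in astrocytes. There were 31 fibroblast-like cells with 2 or more astrocyte marker UMIs. Oligodendrocyte markers summed to 432 to 742 CPM in the PBS mice and to 176, 770 and 6429 CPM in the ASO mice. ASO 2 stood far above the other 5 mice for this list. Ttr, the choroid plexus transcript for transthyretin, was found in 92 of the 108 cells at 3266 CPM, close to 3107 CPM in mural and 3137 CPM in endothelial cells. It had 36, 80 and 0 UMIs in the PBS mice and 101, 53 and 142 in the ASO mice. PBS 3 was also low for Ttr in the other classes, with 38.3 CPM in endothelial cells.

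Apart from mitochondrially encoded and ribosomal protein genes, which were not ranked, the most abundant transcripts were those of secreted lipid carriers. Ptgds, which encodes prostaglandin D synthase, a carrier abundant in cerebrospinal fluid, led with 3874 UMIs (30713 CPM), and Apod, an apolipoprotein, followed with 2340 UMIs (18551 CPM). Oligodendrocytes came next with 7313 CPM of Ptgds and 4458 CPM of Apod, and mural cells had 221 and 197 CPM. Ptgds was found in 66 fibroblast-like cells, the highest of which held 330 UMIs. It had 31957, 26697 and 5785 CPM in the PBS mice and 53919, 31598 and 15849 CPM in the ASO mice, with PBS 3 far below the other 5. Apod had 11660, 16343 and 20991 CPM in the PBS mice and 13030, 30858 and 16377 CPM in the ASO mice. The other leading genes were the nuclear RNA Malat1 (18171 CPM), Apoe (5256 CPM), Dcn, the immediate early genes Fos (4455 CPM) and Jun (3179 CPM), the ferritin subunit Fth1 (4384 CPM), the calcification inhibitor Mgp (4154 CPM), the heparin-binding growth factor Ptn (3710 CPM), Ttr, Itm2b (2941 CPM), the histone gene H3f3b (2767 CPM) and the ubiquitin gene Ubb (2656 CPM). The lipid and prostaglandin list of 24 genes summed to 56367 CPM, of which Ptgds and Apod made up most, and 6 of its 24 genes were highest in the fibroblast-like class. Apoe was not among them, since astrocytes had 16973 CPM.

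Other transcripts were scarcer but stood far above their level in the other classes. Of the 633 genes with at least 30 UMIs in this class, 153 were higher in it than in each of the other 16 classes. Of these, 68 were more than 2 times and 17 more than 10 times above the next class. The limit of 30 UMIs was set in the fibroblast-like class alone, which favours genes that are high there. These counts are therefore descriptions of the chosen genes only. Inmt, an indolethylamine methyltransferase, had the highest ratio, at 793 CPM and 93.1 times the next class. Slc6a13 followed at 62.0 times, the keratan sulfate proteoglycan Lum (761 CPM) at 47.6 times and the organic anion transporter Slc22a6 (341 CPM) at 39.8 times. Next were the oxidase Cyp1b1 (35.4 times), the aldehyde oxidase Aox3 (26.4), the hyaluronan-binding Itih2 (19.8), the osteopontin gene Spp1 (19.4), the lubricin gene Prg4 (16.4), Dcn (15.1), the alcohol dehydrogenase Adh1 (14.4), the matrix protein Tgfbi (13.3), the gap junction gene Gjb2 (12.2), the cochlin gene Coch (11.7) and the phosphodiesterase Enpp1 (11.3). These high ratios rest partly on few UMIs, 30 to 100 for most of the genes. The level in the next class can rest on fewer still, as small classes were shallow. There, 3 UMIs make 48 CPM in the CA2 and CA3 neurons and 12.8 CPM in ependymal cells. The size and order of the highest ratios are therefore uncertain. Prg4 in particular had its 31 UMIs in 4 cells, 18 of them in 1 cell.

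**Figure D2:**
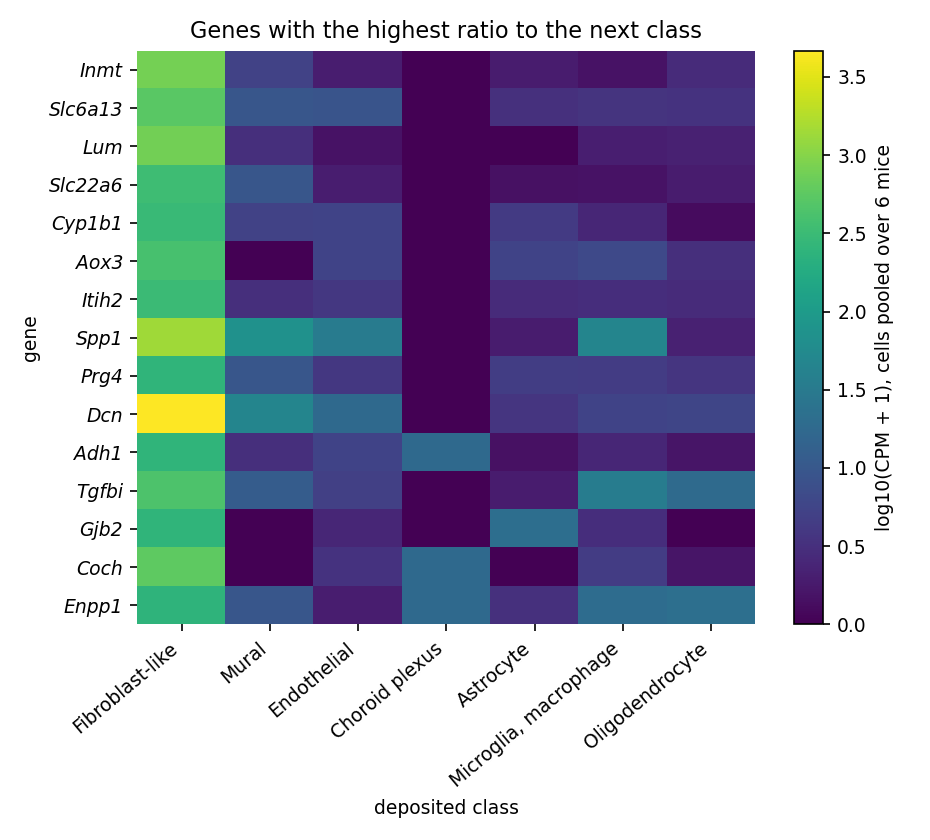
Heat map of the 15 genes with the highest ratio of their level in fibroblast-like cells to that in the next of the other classes, with genes as rows, 7 of the 17 deposited classes as columns and colour giving log10(CPM + 1) of cells pooled over the 6 mice. The fibroblast-like column is the brightest in every row, and Dcn reaches 4646 CPM there.

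Per-mouse values of these genes were less even than their ratios. Inmt had 691, 186 and 816 CPM in the PBS mice and 1091, 818 and 969 CPM in the ASO mice, with PBS 2 lowest and PBS 3 and ASO 2 nearly equal. Lum had 173, 743 and 519 CPM against 674, 935 and 1145 CPM, with PBS 1 lowest on 2 UMIs. Slc22a6 had 777, 232 and 593 CPM against 289, 195 and 308 CPM, from 5 to 9 UMIs in each mouse. Spp1 had 605, 1811 and 1706 CPM against 1284, 1909 and 660 CPM. Lum and Dcn were found together in 42 cells, while only 3 cells held Lum without Dcn and 49 held Dcn without Lum.

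The start regions of 4 of these genes are shown because the genes stand far above the other classes and serve different roles, transport (Slc6a13, Slc22a6), methylation of small amines (Inmt) and matrix (Col1a2). The windows are RefSeq entries on GRCm38.p6 that run from 250 bases before to 50 bases after an annotated start, at chr6:121300038-121300337 (plus strand) for Slc6a13, which has 3 starts in the table of which the first is shown, at chr6:55174941-55175240 (minus strand) for Inmt, at chr19:8617746-8618045 (plus) for Slc22a6 and at chr6:4505368-4505667 (plus) for Col1a2. Capitals mark matches on either strand to a TATA box with the letters TATAAA, to a CAAT box with the letters CCAAT and to a GC box with the letters GGGCGG.
Slc6a13: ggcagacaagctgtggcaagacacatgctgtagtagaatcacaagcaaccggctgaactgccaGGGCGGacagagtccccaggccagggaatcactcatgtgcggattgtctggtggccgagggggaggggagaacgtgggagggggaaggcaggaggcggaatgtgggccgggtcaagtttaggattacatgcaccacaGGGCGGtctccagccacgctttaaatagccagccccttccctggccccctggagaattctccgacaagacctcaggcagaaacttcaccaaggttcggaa
Inmt: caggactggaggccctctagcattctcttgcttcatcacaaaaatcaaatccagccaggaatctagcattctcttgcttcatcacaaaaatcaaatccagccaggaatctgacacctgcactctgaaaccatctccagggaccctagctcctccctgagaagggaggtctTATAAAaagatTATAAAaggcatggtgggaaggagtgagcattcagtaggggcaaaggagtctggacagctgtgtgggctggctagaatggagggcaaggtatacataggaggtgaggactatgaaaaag
Slc22a6: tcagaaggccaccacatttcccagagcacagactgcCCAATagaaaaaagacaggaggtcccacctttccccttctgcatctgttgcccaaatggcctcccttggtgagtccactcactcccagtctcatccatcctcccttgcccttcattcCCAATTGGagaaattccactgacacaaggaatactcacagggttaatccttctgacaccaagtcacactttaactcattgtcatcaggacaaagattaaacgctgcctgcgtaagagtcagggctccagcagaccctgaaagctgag
Col1a2: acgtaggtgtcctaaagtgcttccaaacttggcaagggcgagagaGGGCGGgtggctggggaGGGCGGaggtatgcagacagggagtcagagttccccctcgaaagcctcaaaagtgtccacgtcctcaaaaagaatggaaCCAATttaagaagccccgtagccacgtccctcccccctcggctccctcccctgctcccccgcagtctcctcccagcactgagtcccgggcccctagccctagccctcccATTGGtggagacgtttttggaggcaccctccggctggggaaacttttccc
The Inmt window held TATAAA at 80 and at 69 bases before its start, the Slc6a13 window GGGCGG at 187 and 50 bases before, the Slc22a6 window CCAAT at 214 and 97 bases before with an overlapping reverse match, and the Col1a2 window both CCAAT and the GC box letters. Among 32851 windows of that length in the table, 13.6% held the TATA box letters, 37.4% the CAAT box letters and 35.7% the GC box letters, so such matches are common and describe the letters only. No motif was shared by these 4 windows.

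Matrix genes were expressed by kind. Fibrillar collagens summed to 1594 CPM against 289 CPM in mural cells, with UMIs for 5 of 9 genes. Col5a1, Col5a3, Col11a1 and Col24a1 had none. Of 13 other collagens all 13 were detected and 7 were highest in the class, led by the membrane collagen Col23a1 (317 CPM). Of 32 proteoglycans and matrix glycoproteins 29 were detected and 22 were highest in the class, with a sum of 17243 CPM against 11036 CPM in mural cells. After Dcn and Mgp the largest were Sparcl1 (1570 CPM, below 9577 CPM in astrocytes), Spp1 (1372 CPM) and Sparc (848 CPM, below 2816 CPM in microglia and macrophages). Basement membrane genes summed to 2299 CPM against 1790 CPM in mural cells, led by the laminin chain genes Lama2 (357 CPM) and Lama1 (270 CPM, 7.91 times the next class). Genes of collagen maturation and turnover were led by the protease Adamts1 (793 CPM), its inhibitor family member Timp3 (737 CPM), the procollagen processing enhancer Pcolce (476 CPM) and the collagen chaperone Serpinh1 (301 CPM).

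Solute transporter and retinoid genes stood further above mural cells than basement membrane genes did. Of 24 solute transporters 23 were detected and 13 were highest in the class, with a sum of 5391 CPM against 1749 CPM in mural and 4291 CPM in endothelial cells. The cystine exchanger Slc7a11 led with 1102 CPM, followed by the amino acid transporters Slc6a20a (896 CPM) and Slc38a2 (618 CPM). Of 17 retinoid genes 11 were highest in the class, and the list summed to 2458 CPM against 238 CPM in mural cells. Among its members were the retinoic acid synthesising enzymes Aldh1a1 (610 CPM) and Aldh1a2 (190 CPM). In the insulin-like growth factor axis, Igf2 was followed by the binding proteins Igfbp2 (1054 CPM), Igfbp5 (840 CPM), Igfbp4 (832 CPM) and Igfbp7 (785 CPM), while H19 and Igfbp3 had no UMI. Of 29 mesenchymal transcription factors 17 were highest in the class, led by Nr2f2 (682 CPM) and Zic1 (555 CPM). Among 28 immune genes the chemokine Cxcl12 (1356 CPM) and the adhesion molecule Vcam1 (642 CPM) were abundant. Immediate early and dissociation stress genes summed to 23459 CPM, between 13574 and 33414 CPM in single mice, and mural cells (19860 CPM) and microglia (20133 CPM) were near that level.

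Not all cells of the class carried Igf2, and other genes were higher or lower with it in each mouse. The cells were split by whether they held an Igf2 UMI, a split chosen after the values were seen, so its values carry no test. There were 63 cells with Igf2 and 45 without, of median depth 1078 and 1134 UMIs and median 758 and 784 detected genes. Cells without Igf2 numbered 2, 9 and 2 in the PBS mice and 12, 8 and 12 in the ASO mice. All values without Igf2 in PBS 1 and PBS 3, and so each count of mice below, rest on 2 cells in each of these mice. Because Igf2 is counted sparsely, a cell without a UMI may still express it. Of 632 other genes with at least 30 UMIs, 28 were higher with Igf2 in each of the 6 mice and 22 were higher without it in each of the 6.

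Cells with Igf2 RNA held more RNA of several transporters and lipid carriers. Slc6a20a stood at 1412 CPM with Igf2 and 155 CPM without, and in single mice at 1224, 690 and 906 CPM with it in the PBS mice against 0, 101 and 408 CPM without. In the ASO mice it stood at 1545, 1918 and 1928 CPM with Igf2 and at 200, 355 and 0 CPM without. The lowest value with Igf2 was thus above the highest value without it, but the values without it stand on counts near 0. Cells without Igf2 held only 2588, 9942 and 2449 UMIs of all genes in the PBS mice. At that depth 1 UMI more or less moves a level widely, so the gap between the values is uncertain. Ptgds stood at 44806 against 10484 CPM, Apod at 25154 against 9074 CPM, Ptn at 5367 against 1332 CPM and the peptide hormone gene Edn3 at 740 against 116 CPM, each higher in 6 of 6 mice. The organic anion transporter Slc22a8 had 22 UMIs with Igf2 and 1 without, the sulfate transporter Slc13a4 26 and 0, and the dicarboxylate transporter Slc13a3 26 and 4. Col3a1 had 20 and 1 UMIs, Aldh1a2 had 21 and 3, and the transcription factor gene Tbx18, which pericytes also use, had 25 and 5. Slc6a13 itself was at 740 CPM with Igf2 and 232 CPM without, higher in 5 of 6 mice. The list of 24 solute transporters summed to 6497 CPM with Igf2 and 3803 CPM without and was higher with it in 5 of 6 mice. PBS 3 went the other way (5438 and 16742 CPM), on 2 cells without Igf2.

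Mural marker RNA, most of it from Vtn, went with the same split, and endothelial marker RNA did so less evenly. Vtn, the gene of vitronectin and the most abundant mural marker here, had 110 UMIs in cells with Igf2 and 3 in cells without (1480 and 57.9 CPM), higher in 6 of 6 mice. The mural list summed to 1883 and 212 CPM and was higher with Igf2 in 6 of 6 mice, but Vtn gave 110 of its 140 UMIs with Igf2. The endothelial list summed to 1143 and 579 CPM but was higher with Igf2 in only 4 of 6 mice, with ASO 3 the other way (321.3 and 1196 CPM) and ASO 2 nearly even (697 and 709 CPM). Rgs5, a defining pericyte gene, had 25 and 2 UMIs and was higher with Igf2 in 3 mice and without it in 2. Its high counts lay in few cells, 11 UMIs in 1 cell of PBS 1 and 10 in 1 cell of PBS 3. Markers of cells outside the vessel wall differed too. Astrocyte markers summed to 1184 CPM with Igf2 and 560 CPM without, and neuron markers to 309 and 174 CPM on few UMIs. Each of these 2 lists was higher with Igf2 in 5 of 6 mice. Oligodendrocyte markers were near even (1802 and 1680 CPM), and choroid plexus markers were lower with Igf2 (2865 and 3977 CPM). The part of RNA from other cell types in the pattern was not tested.

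Cells without Igf2 RNA carried a different set. Mgp stood at 8900 CPM without Igf2 and 847 CPM with it. In single mice it stood at 8114, 19413 and 16742 CPM without Igf2 in the PBS mice and at 4006, 8985 and 5232 CPM in the ASO mice, against at most 4070 CPM with it. The alkaline phosphatase gene Alpl (927 against 67.3 CPM), the neural adhesion gene Lsamp (1834 against 309 CPM), the neuropilin gene Nrp1 (483 against 121 CPM) and Inmt (1216 against 498 CPM) were higher without Igf2 in 6 of 6 mice. Tgfbi had 49 UMIs without Igf2 and 7 with it, Adh1 had 30 and 1, Coch 55 and 16, Prg4 31 and 0, the retinoid-binding protein Crabp1 13 and 0, and the organic cation exporter Slc47a1 15 and 1. Slc47a1 belongs to the list of arachnoid barrier genes, which had 40 UMIs without Igf2 and 13 with it, although Dpp4, Krt8 and Krt18 had none in the class and Cdh1 had 2. Most UMIs of that list came from its members Cldn11 and Klf5. The list is not particular to this class, with 420 CPM here and 3195 CPM in oligodendrocytes. The list of 5 dural fibroblast genes, to which Mgp belongs, had 497 UMIs without Igf2 and 95 with it, most of them from Mgp. Immediate early and dissociation stress genes were also higher without Igf2, at 29211 against 19451 CPM and in 5 of 6 mice.

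**Figure D3:**
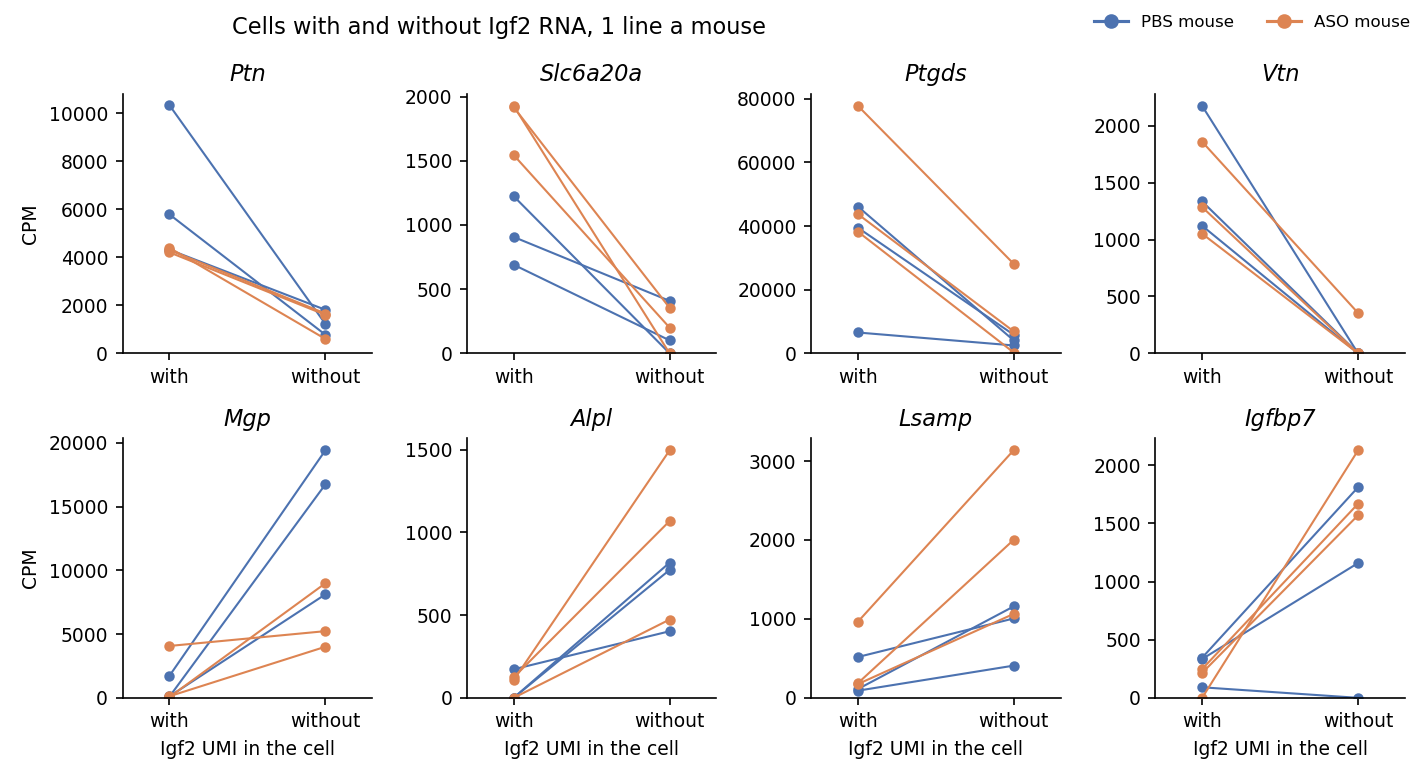
Levels in CPM of 8 genes in fibroblast-like cells with and without an Igf2 UMI, with 1 line for each of the 3 PBS mice (blue) and 3 ASO mice (orange). Lines for Ptn, Slc6a20a, Ptgds and Vtn fall in every mouse and lines for Mgp, Alpl and Lsamp rise in every mouse, while Igfbp7 rises in all but 1. Points without Igf2 come from 2 cells each in PBS 1 and PBS 3.

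Some pairs of genes from opposite sets were seldom found in 1 cell. Of the 108 cells, 4 held Slc6a13 and Mgp together, 33 held Slc6a13 alone and 48 Mgp alone. No cell held both Alpl and Slc6a13, which were found in 27 and 37 cells. Mgp and Igf2 were together in 14 cells, against 38 with Mgp alone and 49 with Igf2 alone. Dcn was spread over both sets, at 4466 CPM with Igf2 and 4904 CPM without, and 55 cells held Dcn and Igf2 together. Col1a2 (1251 and 1023 CPM) and Zic1 (511 and 618 CPM) were also near each other in level.

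The share of cells with Igf2 was 77.8%, 52.6% and 81.8% in the PBS mice and 55.6%, 63.6% and 40% in the ASO mice. The groups overlapped, since PBS 2 lay below both ASO 1 and ASO 2. The part of this uneven mix in the values of ASO and PBS mice given next was not tested.

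The first comparison between groups asked whether fibroblast-like cells made up another share of the captured cells after ASO. They were 0.494%, 0.944% and 0.521% of cells in the PBS mice and 0.957%, 1.05% and 1.14% in the ASO mice, so that each ASO mouse lay above each PBS mouse, by a narrow margin over PBS 2. The means were 0.653% ± 0.252 (SD, n = 3) and 1.05% ± 0.0927 (SD, n = 3), a difference of 0.396 percentage points with p = 0.1 in an exact two-sided permutation test, the smallest p that 3 against 3 mice allow. With doublets kept the difference was 0.370 points (exact permutation p = 0.2). The groups then overlapped, with PBS 2 at 0.9785% and ASO 1 at 0.9378%. As a share of fibroblast-like, mural and endothelial cells together, with doublets left out, the values were 2.83%, 4.66% and 2.79% against 4.83%, 5.76% and 6.33%. These did not overlap (exact permutation p = 0.1). The Wilson 95% intervals for single mice, which cover counting error only, ran from 0.260% to 1.47% in the PBS mice and from 0.658% to 1.76% in the ASO mice and overlapped. Cells captured after dissociation need not have the shares they have in the tissue.

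**Figure D4:**
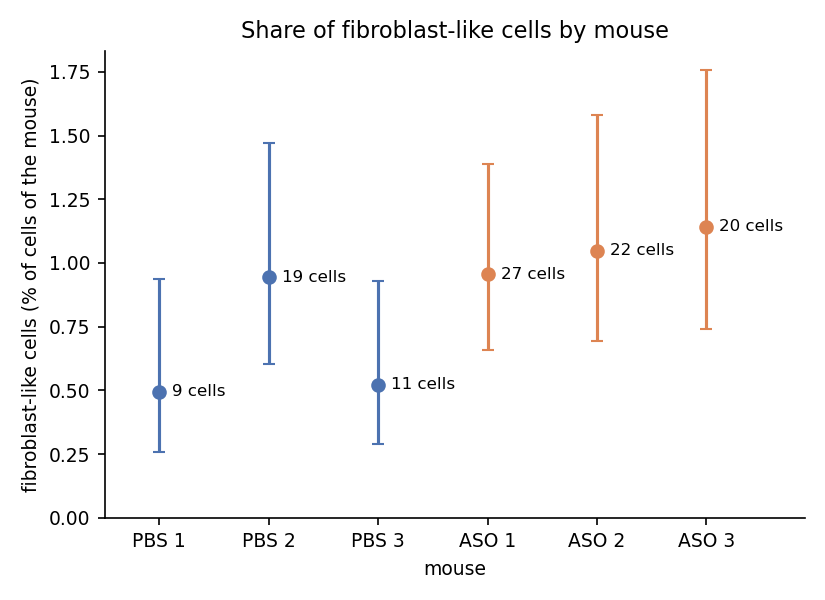
Fibroblast-like cells as a percentage of the cells of each mouse after doublets were left out, with Wilson 95% intervals and the number of cells beside each point, PBS mice in blue and ASO mice in orange. The ASO mice sit at 0.957% to 1.14% and the PBS mice at 0.494% to 0.944%, with intervals that overlap.

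The second comparison asked which genes of the class differed between ASO and PBS mice. Mylip, the gene of the study's target, lies at chr13:45389742-45412022 of GRCm38. It had 0, 6 and 2 UMIs in the fibroblast-like cells of the PBS mice (172 CPM in sum) and 5, 6 and 0 in those of the ASO mice (138 CPM). No difference was detectable at this depth, and Mylip had too few counts to be tested. The related receptor genes Vldlr, with 0 and 4 UMIs, and Lrp8, with 1 and 0, were likewise too sparse.

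Of 260 genes with enough counts, edgeR's quasi-likelihood test called none at a Benjamini-Hochberg adjusted p below 0.05 (0% of the genes tested), while 10 had an unadjusted p below 0.05. DESeq2 also called none, with 7 at an unadjusted p below 0.05. In direction, 145 genes were above 0 and 115 below, and the median log2 fold change of ASO over PBS was 0.05. All ASO mice lay above all PBS mice for 18 genes (6.92%), and below them for 7 (2.69%). One gene was called lower when PBS replicate 2 was left out (Rgs5, log2 fold change -5.03) and 1 when ASO replicate 2 was left out (Flrt2, -3.41). These p-values measure the spread between these mice, which differed in their number of fibroblast-like cells.

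The 8 genes with the lowest p did not pass the adjusted threshold. Atf3, a stress-induced transcription factor, had 10, 27 and 11 UMIs in the PBS mice and 14, 6 and 7 in the ASO mice, or 864, 1254 and 816 CPM against 449, 234 and 308 CPM. The groups did not overlap, and its log2 fold change was -1.54 (SE 0.39) with an edgeR adjusted p of 0.400. All 11 UMIs of PBS 3 lay in 1 cell, and 12 of the 27 of PBS 2 in another. H2-D1, a class I antigen presentation gene with close paralogs, had 8, 25 and 9 UMIs against 12, 5 and 10, with a log2 fold change of -1.33 (SE 0.41). Flrt2, a leucine-rich transmembrane adhesion gene, had 10, 12 and 17 against 2, 15 and 2 UMIs, with ASO 2 inside the PBS range. The small proteoglycan gene Ogn (osteoglycin) had 5, 11 and 2 UMIs against 26, 18 and 26, with a log2 fold change of 1.25 (SE 0.44), and no ASO mouse lay within the PBS range. Enpp2, which encodes the lysophospholipase autotaxin, had 2, 9 and 1 UMIs against 19, 18 and 13. Lsamp had 4, 16 and 2 against 33, 12 and 51 UMIs, Igfbp4 5, 13 and 5 against 46, 17 and 19, and the ribosomal protein gene Rplp2 2, 9 and 4 against 24, 18 and 11. Enpp2, Lsamp, Igfbp4 and Rplp2 had log2 fold changes of 1.34, 1.52, 1.07 and 1.07, and the edgeR adjusted p of each of the 7 genes after Atf3 was 0.783. Lsamp and Igfbp4 were also higher in cells without Igf2, which formed the larger share in ASO 3 only. Lsamp was highest in ASO 3 but Igfbp4 in ASO 1, and the part of the cell mix in these values was not tested.

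**Figure D5:**
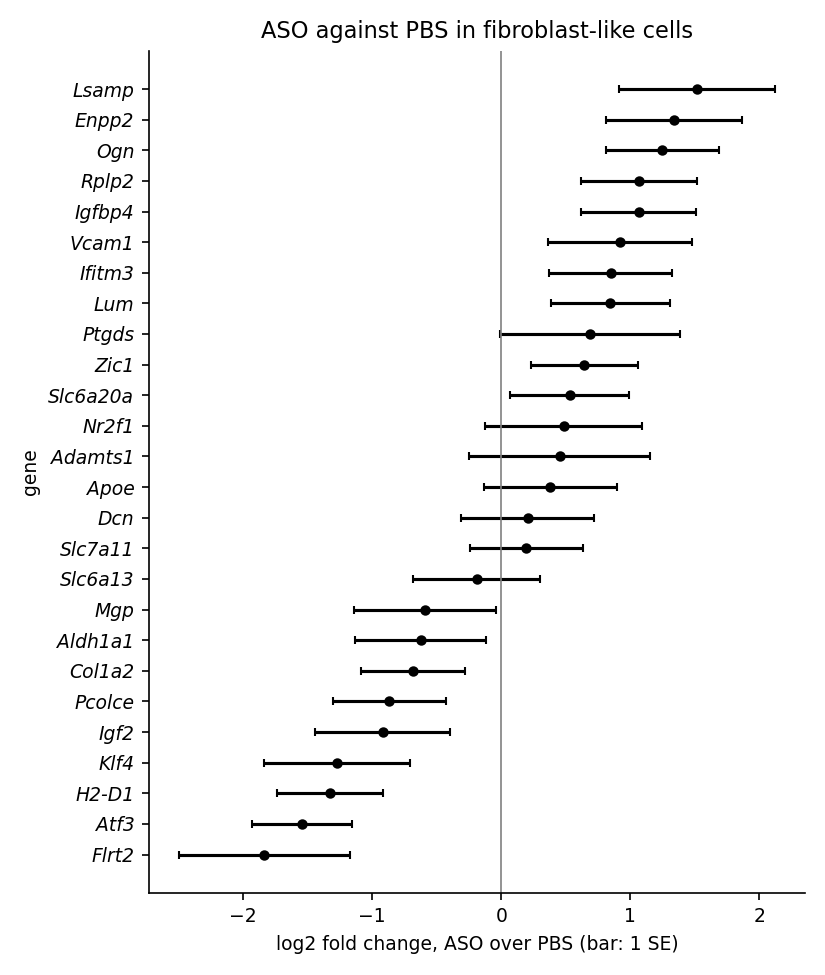
Log2 fold change of ASO over PBS mice in fibroblast-like cells for 26 named genes that were tested with edgeR, with points for the estimate and bars for 1 SE. Values run from -1.84 for Flrt2 to 1.52 for Lsamp, and none of the genes passed the adjusted threshold.

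The 4 class markers with enough counts gave log2 fold changes of -0.92 (SE 0.52) for Igf2, -0.68 (SE 0.40) for Col1a2, -0.19 (SE 0.49) for Slc6a13 and 0.20 (SE 0.51) for Dcn. Each adjusted p from edgeR lay between 0.783 and 0.984. Of the pathway genes, 8 of 8 tested genes of the list of complement, chemokines and immune signals lay above 0 (median log2 fold change 0.27), among them Ifitm3 (0.85, SE 0.48) and Vcam1 (0.92, SE 0.56), beside 145 of 260 over all genes. The class I genes H2-D1 and H2-K1 are not on that list and lay below 0. H2-D1 is given above, and H2-K1 lay at -0.61 (SE 0.48). All 4 tested lipid genes, Ptgds, Apoe, Apod and Lrp1, lay above 0 (median 0.32), as did the 3 tested transcription factors Zic1, Nr2f1 and Nr2f2 (median 0.48). None of them passed the test, and their spread between mice was wide: Ptgds had a log2 fold change of 0.69 with an SE of 0.69. Matrix genes went both ways, with 4 of 8 tested proteoglycans and glycoproteins above 0 (Ogn and Lum among them) and Mgp at -0.59 (SE 0.55). Without PBS replicate 1, Dcn lay at -0.20 and Slc6a13 at 0.0086, and without PBS replicate 2, Mgp lay at 0.29. Pcolce lay at -0.87 (SE 0.44), and each ASO mouse was below each PBS mouse. Of 15 tested immediate early and stress genes 8 lay above 0 and 7 below, with Atf3 and Klf4 (-1.27, SE 0.56) lowest. Of 44 tested ribosomal protein genes 28 lay above 0 (median 0.12).

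The third comparison asked whether the ASO effect in fibroblast-like cells differed from that in the other cells of the vessel wall. The same libraries gave both cell types, so each mouse was kept as a block. Genes could enter these tests through their counts in the other, deeper cell type. Only 260 genes had enough counts in fibroblast-like cells alone, and neither gene called below was among them. Against mural cells 936 genes were tested and 1 passed (0.107%), Atp1b1, a beta subunit of the sodium pump. It had 5, 13 and 5 UMIs in the fibroblast-like cells of the PBS mice and 1, 1 and 2 in those of the ASO mice, while mural cells had 443, 371 and 705 CPM against 379, 993 and 967 CPM. The effect in fibroblast-like cells minus that in mural cells was -3.71 on the log2 scale (SE 0.73, edgeR adjusted p = 0.0302). The UMIs of the PBS mice lay in 1, 3 and 1 cells, so that the call rests on 5 cells. It was lost without ASO replicate 1 (lowest adjusted p of any gene 0.0543) and did not pass without PBS replicate 2 or ASO replicate 2.

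Against endothelial cells 4924 genes were tested and 1 passed (0.0203%), Ly6a, which encodes the surface protein Sca-1. It had 7, 8 and 5 UMIs in the fibroblast-like cells of the PBS mice and 0, 1 and 0 in the ASO mice, too few for the test in this class alone. The endothelial class had 2310, 3342 and 2648 CPM in the PBS mice and 2701, 3919 and 3321 CPM in the ASO mice. The difference of effects was -5.02 (SE 1.02, edgeR adjusted p = 0.00431). All 7 UMIs of PBS 1 lay in 1 cell, all 8 of PBS 2 in 1 cell and the 5 of PBS 3 in 2 cells. Without the cells that held 2 or more UMIs of endothelial or mural markers other than Vtn and Itm2a, an alternative added after the data were seen, no gene passed (lowest adjusted p 0.198). Without PBS replicate 1, ASO replicate 1 or ASO replicate 3 no gene passed either, with lowest adjusted p-values of 0.217, 0.106 and 0.0798.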

How the data were processed

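The authors deposited 1 table of UMI counts for 28324 genes, whose column names give the mouse and the class of each cell. The submitters' processing notes list bcl2fastq, STAR 2.5.0c and the builds mm10 and GRCm38. The counting program and annotation were not given in the sources used here. Cells held 569 to 1999 UMIs, at least 501 genes and at most 15.0% mitochondrial UMIs. Doublets were called per mouse with Scrublet in scanpy 1.11.5 and left out, and no other filter on cells was applied.

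Raw counts were summed per mouse and class and tested in R 4.3.3 with edgeR 4.0.16: genes kept by filterByExpr, TMM factors, glmQLFit and glmQLFTest, two-sided, adjusted by Benjamini-Hochberg over the genes tested (threshold 0.05). Differences of effects used an interaction contrast with mouse as a block. DESeq2 1.42.0 was an alternative. Counts were simulated for the ASO comparison, and 313 genes passed the filter on low counts. Among these, 27 of 30 genes changed 4-fold and 54 of 54 changed 8-fold were recovered, and 4 of 229 unchanged genes were called. Changed genes that the filter removed are not in these numbers. The simulation gave all genes the same dispersion (0.107) and did not place UMIs in single cells. It therefore does not show what share of real changes of that size would be found.

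The members, markers and gene lists were chosen with earlier results of these data known. Named genes were the 6 class markers, the 15 with most UMIs (mitochondrial and ribosomal protein genes left out), the 15 with the highest ratio to the next class among genes with at least 30 UMIs, up to 5 of each list by level and its undetected members, and, for ASO against PBS, the 8 with the lowest p and up to 2 tested members of each list. Some genes that these rules name are not reported here. Genes of the Igf2 split and Rgs5 were chosen after their values were seen. Replicate numbers are those of sample order and pair no mice.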

Additional observations from a re-analysis of the deposited data

Results flagged for a closer look

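The ASO effect differed between cell classes in 2 genes by the edgeR interaction test. For Atp1b1 the effect in fibroblast-like cells minus that in mural cells was -3.71 on the log2 scale. For Ly6a the effect in fibroblast-like cells minus that in endothelial cells was -5.02. Both rest on 5 or fewer cells of the PBS mice that hold the UMIs, and neither call held in every fit that left out 1 mouse. Both genes had too few counts to be tested in fibroblast-like cells alone.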

How the results depend on the processing

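For the ASO comparison, 1 gene was called higher and 1 lower when no filter on low counts was applied (the lower gene was Rgs5, with 12440 genes tested), where the median log2 fold change of all genes moved to 0.43. Leaving out each mouse gave 0 to 1 gene lower, which was Rgs5 without PBS replicate 2 and Flrt2 without ASO replicate 2. A term for the 3 sets of 2 mice read from the data, each with 1 PBS and 1 ASO mouse, gave no call (lowest edgeR adjusted p 0.936). For the difference from mural cells, 2 genes were called lower with doublets kept (Atp1b1 and Rgs5) and 0 to 1 with 1 mouse left out. For the difference from endothelial cells, 2 genes were lower with DESeq2's size factors (Rgs5 and Ly6a), 0 without cells with 2 or more vascular marker UMIs (Vtn and Itm2a not counted), and 0 to 2 with 1 mouse left out, while 0 to 1 were higher (Lsamp, without PBS replicate 2). The causes were not tested.

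Of 26 named genes 19 kept the sign of their ASO difference in every alternative that could be run, and 12 of 368 values turned. With 1 mouse left out, Dcn ranged from -0.20 (without PBS replicate 1) to 0.78, Slc6a13 from -0.58 to 0.12 (0.0086 without PBS replicate 1), Mgp from -0.97 to 0.29 (without PBS replicate 2), Slc7a11 from -0.19 (without ASO replicate 2) to 0.43, Aldh1a1 from -1.10 to 0.086 and Adamts1 from -0.10 to 2.29. With no filter Slc6a13 was at 0.13. In cells with under 2 vascular marker UMIs, Adamts1 was at -0.23 and Slc6a20a at -0.064. The difference in the share of cells stayed above 0, at 0.316 to 0.541 points with 1 mouse left out, where 0.2 is the smallest exact p.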
